A study of Mus musculus with 10 samples.

Results

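The miRNAs described here are both arms of 4 mouse hairpins that are known for expression in blood-forming cells, miR-150, miR-342, miR-142 and miR-223. They were chosen by name, which gave 8 of the 1892 mature miRNAs on the array. Of these 8, 5 were bright enough to be tested. Levels came from 10 one-colour microarrays, 5 of samples titled T-C cell and 5 of samples titled control cell. T-C cell samples carry the source label Col-/- and control cell samples the label Control Col. Per the labels, each dish held 100000 T-C cells and received 0.5 mg TN-CF for 24 hours, next to a control. Every sample is labelled male, sle liver and mouse liver cell culture, so source and treatment cannot be told apart between the groups. The labels do not explain Col, TN-CF, T-C or sle, and the design text writes TB-CF for the agent. The labels do not say that replicates are different animals or cultures, so every p-value reflects only the spread over these samples, and that spread may be technical.

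A miRNA is a short RNA cut from one arm of a folded precursor. It guides Argonaute proteins to messenger RNAs that pair with its seed, bases 2 to 8 from the 5′ end, and lowers their output. Usually one arm, the guide strand, is kept and the other is mostly degraded. miR-150 is abundant in mature B, T and NK lymphocytes, where Myb is its best-known target. miR-342, from an intron of Evl, is also lymphocyte-enriched. miR-142 is made in nearly all blood-forming lineages and is widely used as a marker of them. miR-223 is highest in neutrophils and other myeloid cells. In liver tissue such miRNAs usually come from resident or passing leukocytes. The samples here are also labelled cell culture, and which cells gave the signal was not tested. In bulk RNA, a different number of leukocytes and a different amount of miRNA per cell cannot be told apart.

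The 8 mature sequences are shown because the arms of a hairpin, and the seeds, are what the probes and the families are told apart by. They are the array's target sequences, and 7 of the 8 matched the RefSeq table of GRCm38.p6, where the miR-142 arms are named miR-142a. Capitals mark the seed.
mmu-miR-150-5p: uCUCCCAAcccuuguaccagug
mmu-miR-150-3p: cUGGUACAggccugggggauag
mmu-miR-342-3p: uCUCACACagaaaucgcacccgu
mmu-miR-342-5p: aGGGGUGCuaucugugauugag
mmu-miR-142-3p: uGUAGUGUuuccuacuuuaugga
mmu-miR-142-5p: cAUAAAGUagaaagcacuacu
mmu-miR-223-3p: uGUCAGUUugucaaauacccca
mmu-miR-223-5p: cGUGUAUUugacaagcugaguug
No seed was shared between any of the 8. Among all other miRNAs on the array, 1 carried one of these seeds: miR-5127 has that of miR-150-5p and exceeded its array's detection limit on 1 of 10 arrays.

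On GRCm38 (GENCODE M21), Mir150 lies on chromosome 7 (45121757 to 45121821, plus strand) outside any other annotated gene, with the 3p arm at 45121798 to 45121819. Mir342 lies on chromosome 12 (108658620 to 108658718, plus strand) in an intron of the protein-coding gene Evl, with the 5p arm at 108658638 to 108658659 and the 3p arm at 108658680 to 108658702. Mir142 lies on chromosome 11 (87756864 to 87756927, plus strand) in an intron of the lincRNA gene Mir142hg, with the 5p arm at 87756867 to 87756887 and the 3p arm at 87756903 to 87756925. Mir223 lies on chromosome X (96242817 to 96242926, plus strand) inside an exon of F630028O10Rik, which is non-coding, with the 5p arm at 96242842 to 96242864 and the 3p arm at 96242884 to 96242905. The 4 hairpins thus lie on 4 chromosomes and share no transcript in this annotation.

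Values are spot brightness, averaged over the 2 spots of a miRNA, and brightness of different probes does not rank their abundance. Differences are given as T-C cell minus control, on the scale of log2(intensity + 50) after cyclic loess normalization, which understates changes close to background. A miRNA counted as above background where it exceeded the mean plus 3 SD of an array's 16 blank spots, a limit between 64.0 and 474 over the arrays. It was tested if it did so on at least 5 of 10 arrays, which 476 miRNAs did. T-C cell replicate 3 had the highest limit, 474, and 189 miRNAs above it, while control cell replicate 5 had the lowest, 64.0, and 1314 above it. T-C cell replicate 1 stood apart on the first principal component of the tested miRNAs (50.4% of the variance), at −15.8 against −5.10 to −1.34 for the other T-C cell arrays and 1.63 to 8.05 for control cell arrays. The labelled tissue was checked by miR-122-5p, the main miRNA of hepatocytes, which exceeded the limit on 1 of 10 arrays. Its intensities were 101 to 193 on T-C cell and 57.8 to 178 on control cell arrays, so this miRNA did not bear out the liver label. The 6 listed epithelial miRNAs, miR-375-3p and those of the miR-200 family, exceeded the limit on 10 of 10 arrays. This was not particular to them, as stromal miR-10b-5p and miR-145a-5p, endothelial miR-126a-3p and miR-451a of red cells did so too. miR-192-5p, a miRNA of liver and gut, lay between 9933 and 13592 on T-C cell and between 7608 and 18241 on control cell arrays. Which cells gave the signal of the members was not tested.

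The lymphocyte miRNA miR-150-5p was higher in T-C cell samples, 1.82-fold (95% interval 1.28 to 2.58). It was the 1 member that passed the test, a call that 7 of 21 alternatives kept and 14 lost, and the groups overlapped. The other tested arms, miR-342-3p, miR-223-3p and both arms of miR-142, had differences above 0 that did not pass. The passenger strands miR-150-3p and miR-223-5p and the lesser arm miR-342-5p stood near background on nearly all arrays. miR-142 was the hairpin with 2 tested arms, and these moved together from array to array. Across all 476 tested miRNAs, 7.77% passed in either direction, 7 as higher (1.47%) and 30 as lower. The split of higher and lower was 14 and 33 with quantile normalization and 1 and 13 under median centring. Of the 5 tested members, 5 had a difference above 0, where 52.9% of all tested miRNAs did. The 2 arms of miR-142 among these 5 are not separate observations. The median difference was 0.38 over these 5, a description of the members that passed the filter, and 0.02 over all tested miRNAs.

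**Figure D1:**
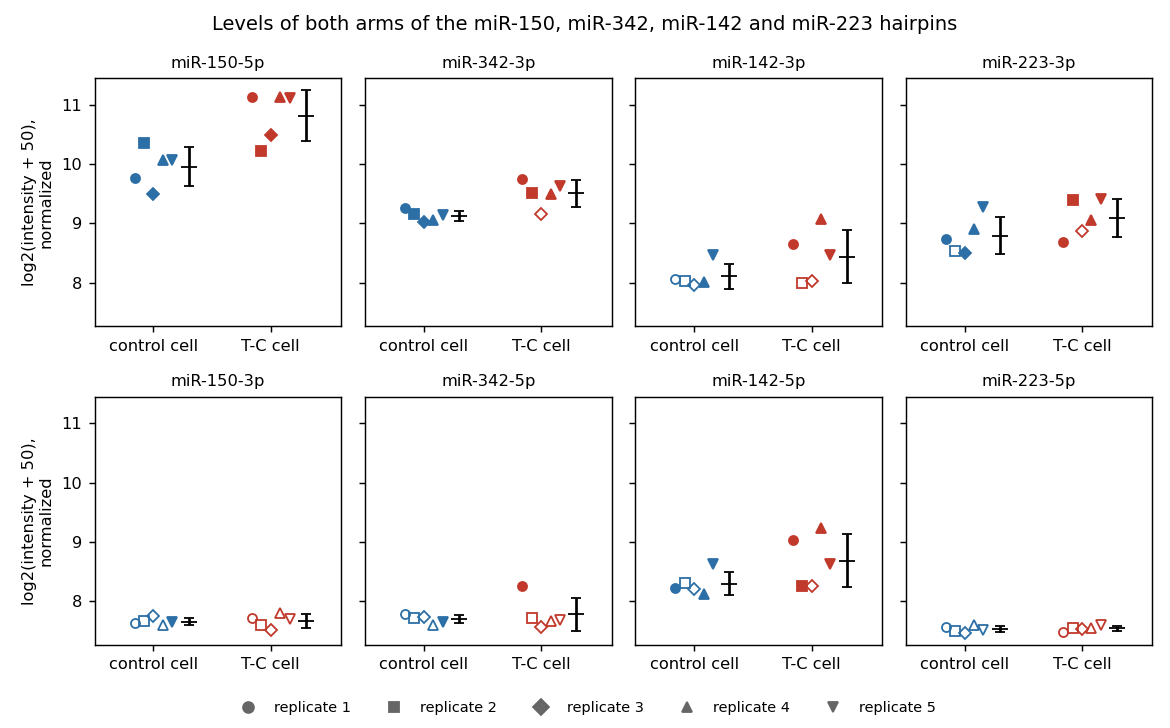
Normalized log2(intensity + 50) of the 8 arms on each array, control cell in blue and T-C cell in red, with marker shapes for the replicate numbers, which do not pair the groups. Filled markers exceeded the array's detection limit, and bars give mean and SD (n = 5). miR-150-5p was at 11.12 to 11.14 on T-C cell replicates 1, 4 and 5, above every control cell array, while the arms at the lower left and lower right stay near 7.5 to 7.8.

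miR-150-5p was above the limit on 10 of 10 arrays and held places 66 to 166 by brightness among the 1892 miRNAs of an array. Its raw intensity was 3218, 1007, 1111, 2827 and 2000 on T-C cell replicates 1 to 5. On control cell replicates 1 to 5 it was 849, 1205, 693, 965 and 1004. Thus T-C cell replicates 1, 4 and 5 were brighter than any control cell array, while T-C cell replicates 2 and 3 lay below control cell replicate 2. After normalization the T-C cell levels were 11.13, 10.22, 10.48, 11.14 and 11.12. The control cell levels were 9.77, 10.36, 9.50, 10.06 and 10.08. The groups still overlapped: 4 of 5 T-C cell arrays lay above every control cell array, and T-C cell replicate 2 lay below control cell replicate 2. Groups that did not overlap were found for 3.78% of tested miRNAs, and for none of the 5 members. The group means were 10.82 ± 0.44 and 9.95 ± 0.33 (SD, n = 5 each, log2 difference 0.86, SE 0.23, limma adjusted p = 0.0433). Leaving out replicate 2 or replicate 3 of the T-C cell group, or replicate 4 of the control cell group, kept the call (limma adjusted p 0.0223, 0.0475 and 0.0497). Without T-C cell replicate 1 the difference was 0.79 (limma adjusted p = 0.0839), and leaving out either T-C cell replicate 4 or 5, or one among control cell replicates 1, 2, 3 and 5, also ended the call (adjusted p 0.0844 to 0.109). It ended under median centring (difference 0.84, adjusted p = 0.876), without normalization (0.95, adjusted p = 0.106) and with blanks subtracted to a floor of 1 (1.10, adjusted p = 0.0615). With the same difference it ended with all 1892 miRNAs tested (adjusted p = 0.228) and in the upper 946 by mean level (adjusted p = 0.0934). The difference stayed between 0.75 and 1.10 in all 21 alternatives.

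The other arm, miR-150-3p, exceeded the limit on 1 of 10 arrays, control cell replicate 5. Its raw intensity ranged from 70.5 to 255, with the highest value on T-C cell replicate 3, the array with the highest detection limit. It was not tested, and its normalized level was 7.67 ± 0.11 on T-C cell arrays and 7.66 ± 0.06 on control cell arrays (SD, n = 5 each). Whether the arms of this hairpin changed alike was not detectable at this brightness.

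miR-342-3p, the second lymphocyte miRNA, was above the limit on 9 of 10 arrays, all but T-C cell replicate 3. Its raw intensity on T-C cell replicates 1 to 5 was 1196, 543, 411, 816 and 705. On control cell replicates it stayed between 453 and 506, the narrowest control range of the tested members. Normalized levels were 9.75, 9.51, 9.15, 9.49 and 9.63 on T-C cell arrays and 9.25, 9.16, 9.02, 9.06 and 9.14 on control cell arrays. T-C cell replicate 3 alone lay among the control values, and the other 4 T-C cell arrays lay above them all. The log2 difference was 0.38 (SE 0.16, 95% interval 0.04 to 0.73), which did not pass over all tested miRNAs (limma adjusted p = 0.195). It did not pass in any of 21 alternatives, where it ranged from 0.31 to 0.53.

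The 5p arm, miR-342-5p, exceeded the limit on 2 of 10 arrays, T-C cell replicate 1 and control cell replicate 5, and was not tested. It was the untested member nearest to the limit of 5 arrays, and miR-142-3p, at 5 arrays, was the tested member nearest to it. Its raw intensity was 123 to 253 on T-C cell and 72.8 to 212 on control cell arrays. On T-C cell replicate 1 its normalized level was 8.26, against 7.57 to 7.71 on the other T-C cell arrays, so that both arms of miR-342 were highest on the same array.

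miR-142-3p and miR-142-5p, the arms of the pan-leukocyte hairpin, were above the limit on 5 and 7 of 10 arrays. The raw intensity of miR-142-5p was 587, 192, 276, 618 and 343 on T-C cell replicates 1 to 5. On control cell replicates 1 to 5 it was 195, 264, 260, 209 and 269. T-C cell replicates 1, 4 and 5 were brighter than every control cell array before normalization. After it, T-C cell replicates 1 and 4 (9.03 and 9.24) remained above all control cell arrays. T-C cell replicate 5 and control cell replicate 5 then stood at the same 8.63. miR-142-3p gave the same order of T-C cell arrays, with raw intensities of 403, 521 and 308 on T-C cell replicates 1, 4 and 5, of 151 and 261 on replicates 2 and 3, and of 162 to 221 on control cell arrays. Its log2 difference was 0.34 (SE 0.20, 95% interval −0.10 to 0.77, limma adjusted p = 0.463). That of miR-142-5p was 0.39 (SE 0.20, 95% interval −0.06 to 0.83, limma adjusted p = 0.368). Neither passed in any alternative, and with blanks subtracted to a floor of 1 miR-142-3p had a difference of 1.56 and miR-142-5p one of 0.81.

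Another probe lies on this locus. miR-142b, annotated on the opposite strand of chromosome 11 (87756906 to 87756925, minus strand), is the reverse complement of bases 4 to 23 of miR-142-3p. It is no member by the rule and was looked at after its values were seen. It exceeded the limit on 1 of 10 arrays, with raw intensities from 68.3 to 250 and a log2 difference of −0.04.

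miR-223-3p, the myeloid miRNA, was above the limit on 8 of 10 arrays. Its raw intensity was 512, 487, 356, 577 and 613 on T-C cell replicates 1 to 5. On control cell replicates 1 to 5 it was 320, 303, 325, 405 and 486. The normalized levels of T-C cell arrays were 8.68, 9.40, 8.88, 9.06 and 9.41, and those of control cell arrays 8.74, 8.54, 8.51, 8.91 and 9.28. After normalization T-C cell replicates 2 and 5 were thus highest and T-C cell replicate 1 was lowest of its group, below 3 control cell arrays. Before it, the 512 of T-C cell replicate 1 was above every control cell array. The log2 difference was 0.29 (SE 0.21, 95% interval −0.17 to 0.74, limma adjusted p = 0.599) and ranged from 0.19 to 0.74 in the alternatives without passing. miR-223-5p, the passenger strand, exceeded the limit on 0 of 10 arrays, with raw intensities from 62.1 to 248, and was not tested.

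**Figure D2:**
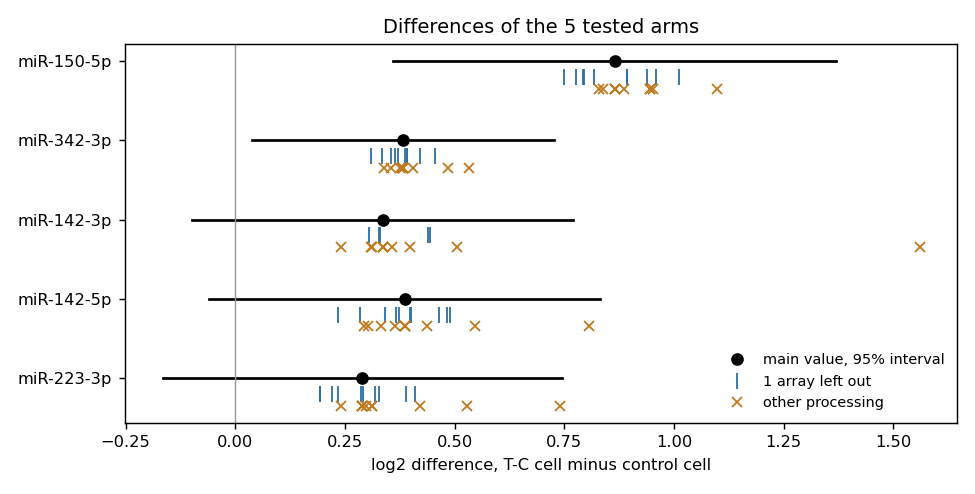
Log2 differences of the 5 tested arms (x axis, T-C cell minus control cell), with 95% intervals from limma, values with 1 array left out (blue ticks) and values under other processing (orange crosses). miR-150-5p stayed between 0.75 and 1.10, and the intervals of miR-223-3p and both arms of miR-142 include 0. The cross at 1.56 is miR-142-3p with blanks subtracted.

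Whether the members changed by different amounts was asked with ratios inside an array, which do not depend on how whole arrays are scaled by a constant. They were taken from levels after cyclic loess, whose correction varies with brightness, so they can depend on that step. For each of the 10 pairs among the 5 tested arms, the log2 ratio was compared between groups by an exact two-sided permutation test over the 252 possible splits, and p-values were adjusted over the 10 pairs by Benjamini-Hochberg. The ratio of miR-150-5p to miR-142-3p was 2.38 ± 0.23 on T-C cell arrays and 1.85 ± 0.34 on control cell arrays (SD, n = 5 each, difference 0.53, exact permutation p = 0.0317, adjusted p = 0.198). That of miR-150-5p to miR-142-5p differed by 0.48 (exact permutation p = 0.0397, adjusted p = 0.198). Against miR-342-3p the difference was 0.48 (exact permutation p = 0.0714, adjusted p = 0.238), and against miR-223-3p it was 0.58 (exact permutation p = 0.127, adjusted p = 0.317). The mean ratio of miR-150-5p to each of the other 4 arms was thus 0.48 to 0.58 higher on T-C cell arrays, but 0 of 10 pairs passed by the adjusted permutation test and 2 had an unadjusted p under 0.05. The 6 pairs without miR-150-5p had differences between −0.05 and 0.10 (exact permutation p 0.397 to 1). With blanks subtracted, the difference of miR-150-5p minus miR-142-3p turned to −0.46. Both under median centring and without normalization it was 0.44 (exact permutation p = 0.0556, adjusted p = 0.212). That of miR-150-5p minus miR-142-5p was 0.40 there (exact permutation p = 0.0476, adjusted p = 0.212).

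**Figure D3:**
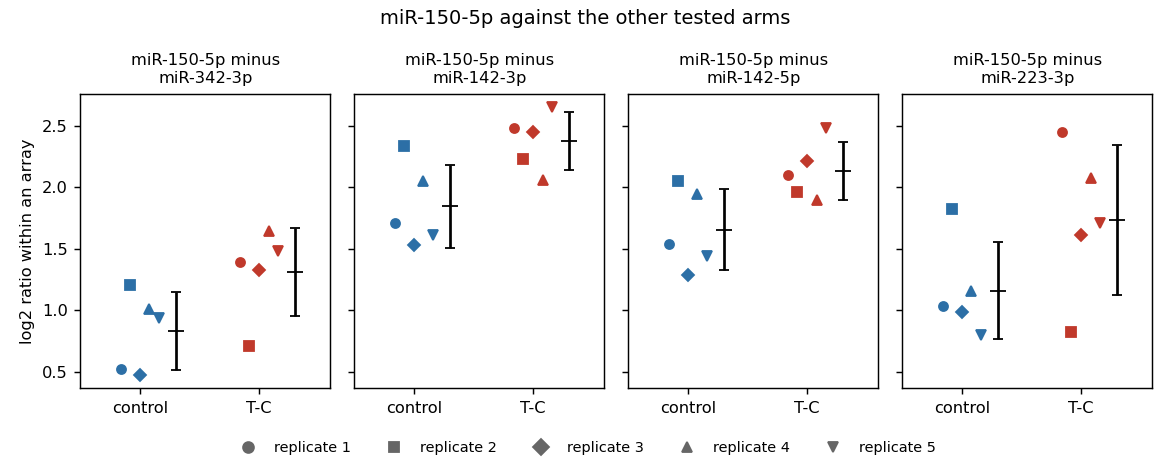
Log2 ratio of miR-150-5p to each of the other 4 tested arms within each array (y axis), control cell in blue and T-C cell in red, with mean and SD (n = 5). T-C cell arrays lie higher on average in each panel, and the groups overlap in all 4, with T-C cell replicate 2 lowest of its group against miR-342-3p and miR-223-3p.

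Whether lymphoid, pan-leukocyte and myeloid miRNAs moved together across arrays was asked with the deviations from the group means, so that the group difference itself did not enter. Correlations are over the 10 arrays, with exact permutation p over all 14400 reorderings within groups, adjusted over 10 pairs. The arms of miR-142 moved together, with r = 0.97 (exact p = 0.00139, adjusted p = 0.0139) and rho = 0.94 (exact p = 0.00146, adjusted p = 0.0146). Without the 2 arrays farthest from the median of miR-142-3p, r was 0.95. This was the 1 pair of 10 whose r passed after adjustment, and it is also the pair cut from a single precursor. Leaving out T-C cell replicate 1, 4 or 5, or control cell replicate 5, ended the call, with r between 0.96 and 0.99 when any 1 array was left out. With blanks subtracted to a floor of 1, r was 0.705 and did not pass (exact permutation, adjusted p = 0.131). The call was lost in 6 of 16 alternatives. miRNAs of other hairpins came about as close: miR-142-5p had r = 0.97 with miR-106a-5p and 0.96 with miR-1195. miR-142-3p itself was above the limit on 5 of 10 arrays.

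The lymphocyte miR-150-5p had r = 0.70 with both miR-142-3p (exact p = 0.0648, adjusted p = 0.223) and miR-142-5p (exact p = 0.0669, adjusted p = 0.223). By rank, rho was 0.75 with miR-142-3p (exact p = 0.0327, adjusted p = 0.109) and 0.84 with miR-142-5p (exact p = 0.00854, adjusted p = 0.0427). Without the 2 farthest arrays, T-C cell replicate 2 and control cell replicate 3, r was 0.58 and 0.64. For comparison, the r of all 113050 pairs of tested miRNAs had a median of −0.01 and a 95th percentile of 0.71, as a description of these arrays. On T-C cell replicates 1 and 4 both miR-150-5p and the miR-142 arms were high, and on T-C cell replicates 2 and 3 both were low for their group. Among control cell arrays, both lay above their group means on replicate 5 and below them on replicate 3, while on replicate 2 miR-150-5p was the highest of its group and the miR-142 arms were not.

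Between the lymphocyte pair, miR-150-5p and miR-342-3p, r was 0.48 (exact p = 0.250, adjusted p = 0.624) and rho 0.47 (exact p = 0.216, adjusted p = 0.359). Without the 2 farthest arrays r was 0.60. miR-342-3p had r = 0.42 with miR-142-3p (exact p = 0.410, adjusted p = 0.683) and r = 0.49 with miR-142-5p (exact p = 0.315, adjusted p = 0.630), with rho = 0.50 for each (exact p = 0.195 and 0.205, adjusted p = 0.359). Those values rested on T-C cell replicates 3 and 1, the 2 arrays farthest from the median of miR-342-3p, without which r was 0.02 and −0.02.

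The myeloid miR-223-3p had r between −0.05 and 0.09 with the other 4 arms (exact p 0.828 to 0.905, adjusted p = 0.905) and rho between −0.10 and 0.16 (exact p 0.682 to 0.974, adjusted p 0.894 to 0.974). Without the 2 farthest arrays of the other member, r was 0.03 with miR-150-5p and 0.29 with miR-342-3p, and −0.32 and 0.31 with miR-142-3p and miR-142-5p. After normalization, miR-223-3p was high on T-C cell replicate 2, where miR-150-5p and miR-142 were low. On T-C cell replicate 1 the reverse was seen. The raw intensity of miR-223-3p was 487 on T-C cell replicate 2 and 512 on T-C cell replicate 1, so this order was not seen before normalization. These correlations depended on the normalization. Under median centring all 10 pairs passed, those of miR-223-3p with r from 0.79 to 0.87, but there the median r over all pairs of tested miRNAs was 0.71. Without normalization the median over all pairs was 0.18 and r was 0.46 between miR-150-5p and miR-223-3p and 0.35 between miR-142-5p and miR-223-3p. With quantile normalization the median over all pairs was 0.01, and miR-223-3p had r = 0.48 with miR-342-3p and 0.47 with miR-142-3p (exact permutation, adjusted p = 0.386 each), 0.41 with miR-142-5p (adjusted p = 0.408) and −0.08 with miR-150-5p (adjusted p = 0.846), none past the threshold.

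**Figure D4:**
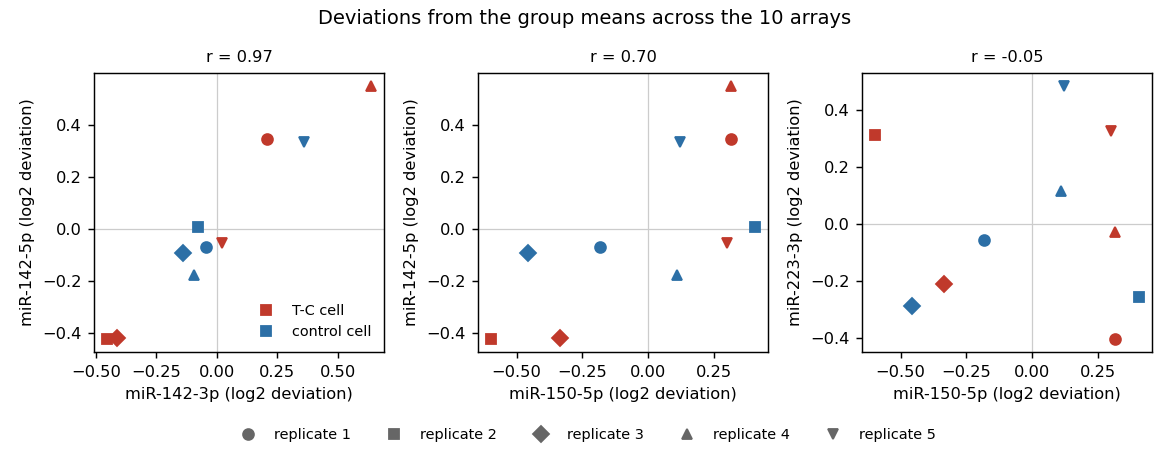
Deviations of normalized log2 levels from the group means on the 10 arrays (T-C cell red, control cell blue), for the arms of miR-142, for miR-150-5p with miR-142-5p and for miR-150-5p with miR-223-3p. The arms of miR-142 lie along a line (r = 0.97), miR-150-5p and miR-142-5p less so (r = 0.70), and miR-150-5p and miR-223-3p show no common slope (r = −0.05).

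The tested miRNAs whose group-centred levels were most like those of a member, of 475 others over 10 arrays, were found by Pearson's r as a description. For miR-142-3p the first was miR-142-5p (0.97), then miR-1195 (0.95) and miR-106a-5p (0.93). For miR-142-5p they were the same, miR-142-3p (0.97), miR-106a-5p (0.97) and miR-1195 (0.96). miR-150-5p was most like miR-7046-5p (0.89), miR-705 (0.81) and miR-5130 (0.79). miR-342-3p was most like miR-181b-5p (0.88), itself a lymphocyte-enriched miRNA, then miR-3102-5p.2-5p (0.87) and miR-7072-5p (0.86). miR-223-3p was most like miR-1946a (0.88), miR-148a-3p (0.87) and miR-7219-3p (0.87). Members of different hairpins were thus not among each other's 3 nearest, and none of these 11 miRNAs outside the members passed the group comparison (limma adjusted p 0.363 to 0.900).

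Other miRNAs known from leukocytes, not all of them specific to these cells, were read beside the members. Of 17 on the array, among them miR-155-5p and miR-146a-5p of activated cells, the miR-181 family of lymphocytes and the miR-17-92 cluster of dividing cells, 17 were tested, 0 passed by limma in either direction and 0 had an unadjusted p under 0.05. Over all 476 tested miRNAs, 87 had an unadjusted limma p under 0.05, and of the 5 tested members 2 did. The median difference of the 17 was 0.13, with 12 of 17 above 0. The smallest p belonged to miR-19b-3p (−0.33), miR-181a-5p (0.19), miR-15b-5p (0.16) and miR-181b-5p (0.22), with limma adjusted p from 0.603 to 0.659. Their summed raw intensity was 19247 to 35693 on T-C cell and 21312 to 25569 on control cell arrays. That of the 8 members, 3 of them untested, was 2732 to 6266 and 2361 to 3082. Such sums over different probes do not rank the lists and were not normalized between arrays.

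Markers of other cells in blood or liver did not pass either. miR-451a of red cells differed by 0.30 (SE 0.28, limma adjusted p = 0.678), and miR-144-3p and miR-144-5p of the same lineage exceeded the limit on 1 and 0 arrays. The summed intensity of these 3 was 900 to 1762 on T-C cell and 738 to 1405 on control cell arrays. Endothelial miR-126a-3p differed by −0.01 (SE 0.14, limma adjusted p = 0.987). Of 8 stromal miRNAs 0 passed by limma, with miR-10b-5p at 0.70 (adjusted p = 0.185). Of these 8, 1 had an unadjusted p under 0.05, as did 87 of all 476 tested miRNAs. Of 6 epithelial miRNAs 0 passed by limma and 0 had an unadjusted p under 0.05, the lowest values being −0.51 for miR-375-3p and −0.37 for miR-200a-3p (adjusted p = 0.311 each). Of 4 tested miRNAs of the hepatocyte list, miR-192-5p, miR-148a-3p, miR-194-5p and miR-101a-3p, 0 passed by limma and 0 had an unadjusted p under 0.05. Detection of these 4 does not show hepatocytes, since miR-192-5p is also a miRNA of gut. miR-122-5p and miR-122-3p of the same list exceeded the limit on 1 array each and were not tested. The summed intensity was 32171 to 59815 on T-C cell and 39183 to 47346 on control cell arrays for the stromal list, and 22173 to 37027 and 21932 to 36505 for the epithelial one. Whether any of these moved the value of miR-150-5p was not tested.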

How the data were processed

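RNA from 10 samples (5 T-C cell, 5 control cell, grouped by title) was hybridized to microarrays by LC Sciences, a service provider. Per the labels' protocols, 1 µg of Trizol-extracted RNA was poly(A)-tailed, tagged and stained with Cy3. The authors deposited the median intensity of every spot, per the file headers, as a linear value not scaled between arrays. The scanner and the miRBase release used are not given in the sources. Headers number the arrays, and T-C cell replicate 1 alone of its group has a number below those of control cell arrays. What they number is not stated, so no batch was formed.

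Arrays held 3968 spots, 3784 of them for miRNAs. No arrays were duplicates (correlations 0.814 to 0.982). Intensities were converted to log2(intensity + 50), averaged over the 2 spots, normalized by cyclic loess and compared with limma 3.58.1 (R 4.3.3, eBayes with trend, two-sided). P-values were adjusted by Benjamini-Hochberg over the 476 miRNAs above background on at least 5 arrays, with a threshold of 0.05. Pair ratios and correlations used exact permutation (Python 3.11.15, scipy 1.17.1), where 5 against 5 cannot go below p = 0.00794. Precision is limited by the array number. The procedure was tested on simulated arrays.

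The members and lists were chosen with earlier results of these data known. Named miRNAs were the members, up to 4 per list by smallest p and the 3 most like each tested member. Lists were other leukocyte, erythroid, hepatocyte, endothelial, stromal and epithelial miRNAs. Alternatives were other normalizations, 200 added, blanks subtracted, other filters, array weights, the lower of the spots, a replicate block and leaving out arrays. Sequences and arm positions are from the deposited files and RefSeq (GRCm38.p6), hairpins from GENCODE M21.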

Additional observations from a re-analysis of the deposited data

Results flagged for a closer look

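Of 36 groups of 5 values examined (8 arms and 10 within-array ratios in each group), 3 had 1 array far from the other 4, where chance gives about 1 in 20. miR-342-5p stood at 8.26 on T-C cell replicate 1, against 7.57 to 7.71 on the other T-C cell arrays. miR-142-3p stood at 8.47 on control cell replicate 5, against 7.97 to 8.06 on the other control cell arrays, and the log2 ratio of miR-342-3p to miR-142-3p was 0.671 on that array, against 1.05 to 1.19 on the others. That ratio contains the flagged miR-142-3p value, so the 3 flags are not all separate observations, and the 36 groups are not independent. T-C cell replicate 1 is the array that stood apart on the first principal component, and control cell replicate 5 the one with the lowest background. Their part in these values was not tested.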

How the results depend on the processing

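Differences of the 5 tested members stayed above 0 in every alternative that gave them. miR-150-5p kept its call in 7 of 21 and lost it in 14, and the other 4 never passed. miR-142-3p had no value in 5 of the fits without 1 array and in the fit without T-C cell replicates 1 and 3 (chosen after seeing the data), where it fell under the detection filter. Without normalization the median difference of all tested miRNAs was 0.14, against 0.02.

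Of all tested miRNAs 37 passed. The count was 14 under median centring, 3 with blanks subtracted, 1 with all miRNAs tested, 2 among the upper 946 by mean, 1 without T-C cell replicates 1 and 3, and 1 to 44 without any 1 array. The number of members that passed was 1. It was 0 under median centring, without normalization, with blanks subtracted, with all miRNAs tested, in the upper 946 and without T-C cell replicates 1 and 3, and 0 to 1 without any 1 array. With the replicate number as a block, 22 miRNAs passed and 0 members (miR-150-5p adjusted p = 0.0683 by limma). The numbers do not pair the samples: correlations of same-numbered deviations were −0.11, −0.20, 0.06, −0.11 and 0.26.

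Within-array differences passed for 0 of 10 pairs in all 16 alternatives. miR-150-5p minus miR-142-3p was −0.46 with blanks subtracted and positive otherwise. By Pearson's r, correlations passed for 1 pair, for 10 under median centring, for 0 with blanks subtracted and without T-C cell replicates 1 and 3, and for 0 to 1 without any 1 array. By rank, miR-150-5p with miR-142-5p also passed on all arrays (rho = 0.84, exact permutation, adjusted p = 0.0427). The alternatives are given for r alone. The sign of r turned for 6 pairs. miR-150-5p with miR-223-3p gave 0.81 under median centring, 0.46 without normalization, 0.00369 without T-C cell replicates 1 and 3 and −0.27 to 0.26 without any 1 array. miR-142-5p with miR-223-3p gave 0.41 with quantile normalization, 0.79 under median centring, 0.35 without normalization, 0.34 with blanks subtracted, 0.0302 without T-C cell replicates 1 and 3 and −0.33 to 0.26 without any 1 array. miR-342-3p with miR-223-3p gave −0.0653 with 200 added, 0.48 with quantile normalization, 0.42 with blanks subtracted, 0.41 without normalization and −0.14 to 0.40 without any 1 array. miR-142-3p with miR-223-3p gave 0.47, 0.40 and 0.32 in those 3 settings (quantile, blanks, none) and −0.16 to 0.38 without any 1 array. miR-342-3p with miR-142-3p (0.42 on all arrays) gave −0.00582 without T-C cell replicates 1 and 3 and −0.0263 to 0.665 without any 1 array, and with miR-142-5p (0.49) −0.0360 and 0.10 to 0.69. The cause of these changes was not tested.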
